A study of Mus musculus with 9 samples.

Results

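Long- and medium-chain acyl-CoA synthetases were followed here in the kidney cortex of fasted and fed mice. They are the 9 genes Acsl1, Acsl3, Acsl4, Acsl5 and Acsl6 (long-chain) and Acsm1, Acsm2, Acsm3 and Acsm5 (medium-chain), taken by name out of the 23420 genes in the deposited table. The fasted group is 4 male C57/BL6 mice without food for 16 h, and the fed group is 5 male C57/BL6 mice with free access to food. All were kept on chow, and each library was made from a piece of cortex of about 50 mg. The 4 and 5 libraries match the number of mice the study gives per group. The age of the mice and the hour of collection are not given in the sources used here. Levels are read counts scaled by the authors to a common library size, called normalized counts. Changes are fasted over fed on the log2(normalized count + 1) scale with their standard error (SE). A change was called where the adjusted p from limma, corrected over the 15098 genes that averaged 10 or more normalized counts, was under 0.05.

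A fatty acid cannot be burned, stored or built into a membrane until it is joined to coenzyme A, and acyl-CoA synthetases catalyse that step. The Acsl enzymes act on long chains and sit on the outer mitochondrial membrane, the endoplasmic reticulum, peroxisomes or lipid droplets. The Acsm enzymes lie in the mitochondrial matrix, where they activate medium chains and small aromatic acids such as benzoate. The proximal tubule, the main cell type of kidney cortex, lives largely on fatty acid oxidation.

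The Acsm genes lie side by side on chromosome 7, whereas the Acsl genes are scattered. On GRCm38 in GENCODE M21, Acsm5 spans chr7:119519463-119545551, Acsm2 chr7:119554340-119600690, Acsm1 chr7:119607026-119662515 and Acsm3 chr7:119760923-119787513, all on the plus strand and all protein-coding. Acsl1 is at chr8:46471037-46536051, Acsl3 at chr1:78657825-78707743, Acsl5 at chr19:55251938-55297720 and Acsl6 at chr11:54303798-54364756, on the plus strand. Acsl4 is at chrX:142317993-142390535 on the minus strand.

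Promoter windows of 300 bases, from 250 before to 50 after each annotated start (RefSeq, GRCm38.p6), were found for all 9 genes. They are shown for both called genes and for neighbouring Acsm genes because they differ in their CG dinucleotides, which are in capitals; TATAAA is also in capitals. Acsl1 has an upstream start (chr8:46470787-46471086) and a downstream start (chr8:46490716-46491015), both on the plus strand. The windows of Acsl4 (chrX:142390486-142390785, minus strand), Acsm2 (first start, chr7:119554090-119554389, plus strand) and Acsm1 (chr7:119617562-119617861, plus strand) follow.
Acsl1 upstream start: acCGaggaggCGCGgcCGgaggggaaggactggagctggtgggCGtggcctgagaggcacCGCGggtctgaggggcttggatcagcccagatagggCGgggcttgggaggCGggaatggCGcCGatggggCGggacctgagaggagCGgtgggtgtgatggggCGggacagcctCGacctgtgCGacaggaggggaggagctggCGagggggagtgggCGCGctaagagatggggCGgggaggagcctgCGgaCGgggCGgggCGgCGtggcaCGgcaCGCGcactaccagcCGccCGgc
Acsl1 downstream start: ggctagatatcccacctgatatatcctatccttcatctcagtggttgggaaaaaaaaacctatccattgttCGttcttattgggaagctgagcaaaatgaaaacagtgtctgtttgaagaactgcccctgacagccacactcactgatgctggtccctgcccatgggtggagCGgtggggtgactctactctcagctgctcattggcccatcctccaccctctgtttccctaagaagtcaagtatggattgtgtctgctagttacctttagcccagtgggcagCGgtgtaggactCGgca
Acsl4: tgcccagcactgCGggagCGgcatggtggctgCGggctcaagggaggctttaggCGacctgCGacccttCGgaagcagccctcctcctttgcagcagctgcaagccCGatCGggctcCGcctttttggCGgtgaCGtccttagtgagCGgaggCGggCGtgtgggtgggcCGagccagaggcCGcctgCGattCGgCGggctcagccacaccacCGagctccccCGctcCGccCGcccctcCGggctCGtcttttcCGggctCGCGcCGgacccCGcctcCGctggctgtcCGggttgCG
Acsm2 first start: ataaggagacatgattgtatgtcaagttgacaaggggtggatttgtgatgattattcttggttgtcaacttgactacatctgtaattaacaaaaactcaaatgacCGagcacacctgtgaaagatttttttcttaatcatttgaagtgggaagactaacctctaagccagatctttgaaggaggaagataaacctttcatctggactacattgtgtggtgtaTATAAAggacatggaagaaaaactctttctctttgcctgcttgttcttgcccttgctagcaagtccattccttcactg
Acsm1: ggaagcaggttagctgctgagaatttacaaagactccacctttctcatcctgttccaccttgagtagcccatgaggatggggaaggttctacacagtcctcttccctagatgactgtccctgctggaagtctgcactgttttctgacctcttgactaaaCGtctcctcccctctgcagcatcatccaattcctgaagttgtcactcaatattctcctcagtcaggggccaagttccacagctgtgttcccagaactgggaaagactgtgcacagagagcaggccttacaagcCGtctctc

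The Acsl1 upstream window holds 30 CG dinucleotides and the Acsl4 window 33, while the Acsl1 downstream window holds 4, Acsm1 2 and Acsm2 1. Over all 32851 windows of this length the median was 7, and 11.7% held at least 30. Among the 13 windows of the 9 genes, the 8 Acsl windows had a median of 19.5 (1 to 36) and the 5 Acsm windows a median of 2 (1 to 7). Acsl3 had 33 and Acsl5 had 9. Motifs were searched on both strands. The direct repeat bound by PPAR alpha with RXR, searched as AGGTCA and AGGTCA with 1 base between, was in none of the 13 windows and in 0.0396% of all windows. A looser form that includes it, AGGNCA and AGGNCA with 1 base between, was also in none, against 0.381% of all. The half-site AGGTCA alone was in the windows of Acsm1 and the first start of Acsl6, and in 16.3% of all. The TATAAA letters at position -28 from the Acsm2 first start were the only such match among the 13, against 13.6% of all windows. The sterol regulatory element TCACCCCAC was matched once, in the Acsl1 downstream window (0.551% of all), and the E-box CACGTG once, in Acsm5 (7.15% of all). The HNF1 motif, searched as GTTAAT and ATTAAC with 1 base between and as GTTAAT and TTAAC with 2 bases between, was in none (0.00913% and 0.0396% of all). The direct repeat and HNF1 forms are so rare over all windows that their absence from 13 windows says little. Bases outside the windows were not searched.

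**Figure D1:**
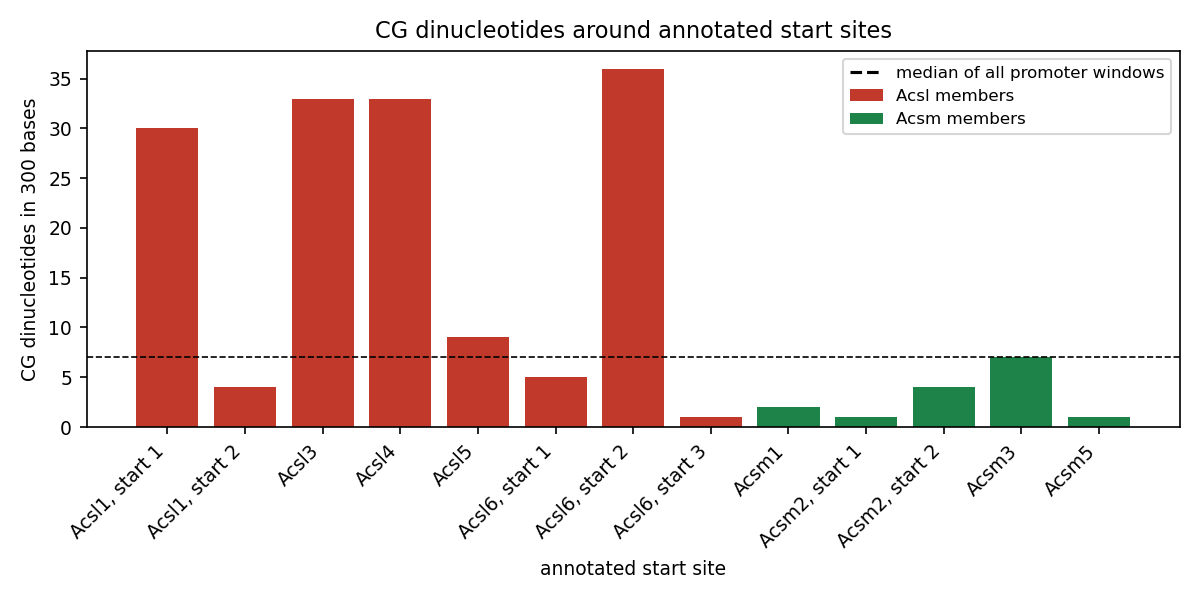
CG dinucleotides (vertical axis, count in 300 bases) around each annotated start site of the 9 genes (horizontal axis), with Acsl members in red, Acsm members in green and the median of all windows as a dashed line at 7. Acsl3, Acsl4 and 1 start each of Acsl1 and Acsl6 reach 30 to 36, while no Acsm window passes 7.

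Set per kb of exon, Acsm2 was the highest member in both states. It averaged 13575 ± 1571 normalized counts per kb in fasted kidneys and 16880 ± 2774 in fed kidneys (SD, n = 4 and 5), and its mean normalized count ranked 11 among all genes in the table. Acsm3 came next with 3783 ± 932 per kb in fasted and 3413 ± 895 per kb in fed kidneys. In fed kidneys the order then ran Acsm1 (2403 per kb), Acsm5 (1234), Acsl1 (983), Acsl5 (583), Acsl4 (488), Acsl3 (227) and Acsl6 (0.685). Neighbours whose fed ranges overlapped were Acsm3 with Acsm1, Acsm5 with Acsl1, and Acsl5 with Acsl4. In fasted kidneys Acsl1 stood at rank 3 with 2126 ± 250 per kb. Its range of 1813 to 2413 per kb overlapped those of Acsm3 and Acsm1, and Acsl4 (732 per kb) and Acsl5 (669 per kb) had also changed places with overlapping ranges. The lengths are those of all annotated exons joined. With the longest transcript instead, Acsl1 had 2753 per kb over the 9 libraries in place of 1491. It then ranked 3 among the members, above Acsm1 (2312 per kb) and Acsm5 (1486 per kb). The order thus depends on the length used, and it was not computed for each group with longest transcripts.

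Among the long-chain genes, Acsl1 and Acsl4 rose and none fell. That is 2 of the 4 tested, where 1656 of all tested genes were called, 5.72% as higher and 5.25% as lower. Acsl1, which feeds fatty acids into oxidation and storage, had 21799, 25293, 19004 and 23039 normalized counts in fasted kidneys, against 10689, 11799, 9003, 9523 and 10500 in fed kidneys. Each fasted library lay above every fed library, and the lowest fasted value was well clear of the highest fed one. Of its exon bases 9.91% are shared with Gm45244 on the opposite strand. The change was 1.11 (SE 0.10, limma adjusted p = 0.000154), a fold of 2.16 with a 95% interval of 1.85 to 2.52. The smallest change with any library left out was 1.05, and Acsl1 stayed called in all 20 alternative settings.

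Acsl4 prefers arachidonate and directs it into phospholipids. Its normalized counts were 3184, 4756, 3583 and 4312 in fasted kidneys, against 2548, 2405, 3057, 2079 and 3098 in fed kidneys. The groups did not overlap, but Fasted 1 lay barely above Fed 5 and Fed 3. Groups without overlap occurred in 14.3% of all tested genes, 7.62% with fasted higher and 6.64% with fasted lower. Acsl4 rose by 0.58 (SE 0.14, limma adjusted p = 0.0236), a fold of 1.499 (95% interval 1.21 to 1.86). The call was lost without Fasted 2 (limma adjusted p = 0.067), Fasted 4 (0.079), Fed 1 (0.055) or Fed 2 (0.053), with changes of 0.49 to 0.58.

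Acsl5, found on mitochondria and endoplasmic reticulum, differed less and was not called. It had 3210, 3538, 3220 and 3045 normalized counts in fasted kidneys and 2746, 3093, 2761, 2841 and 2744 in fed kidneys. Only Fed 2 reached into the fasted range. Exons of Zdhhc6 on the opposite strand share 8.31% of its exon bases. The change was 0.20 (SE 0.06, limma adjusted p = 0.073), with a 95% interval of the fold from 1.04 to 1.26. DESeq2 on the recovered reads put it past the threshold (adjusted p = 0.033).

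Acsl3, an enzyme of the endoplasmic reticulum and of growing lipid droplets, had 850, 937, 834 and 896 normalized counts in fasted kidneys. Its fed values ran more widely, at 1218, 1155, 979, 906 and 697. All fasted libraries fell inside the fed range, the change was -0.15 (SE 0.14, limma adjusted p = 0.54), and the log2 interval was -0.45 to 0.16. The change was -0.07 without Fed 1, -0.08 without Fed 2 and -0.27 without Fed 5. Of its exon bases 5.60% are shared with Utp14b on the same strand, so reads there overlap both genes. Utp14b itself had 300 ± 17.5 normalized counts in fasted and 382 ± 58.4 in fed kidneys (change -0.33, limma adjusted p = 0.088).

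Acsl6, known from brain, was close to absent. It had 1 to 8 recovered reads per library in fasted kidneys and 4 to 13 in fed kidneys, or 17 and 35 reads in all. With a mean of 5.83 normalized counts it fell below the filter and was not tested. Without a filter its change was -0.67 (limma adjusted p = 0.45), and at this depth no difference was detectable.

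**Figure D2:**
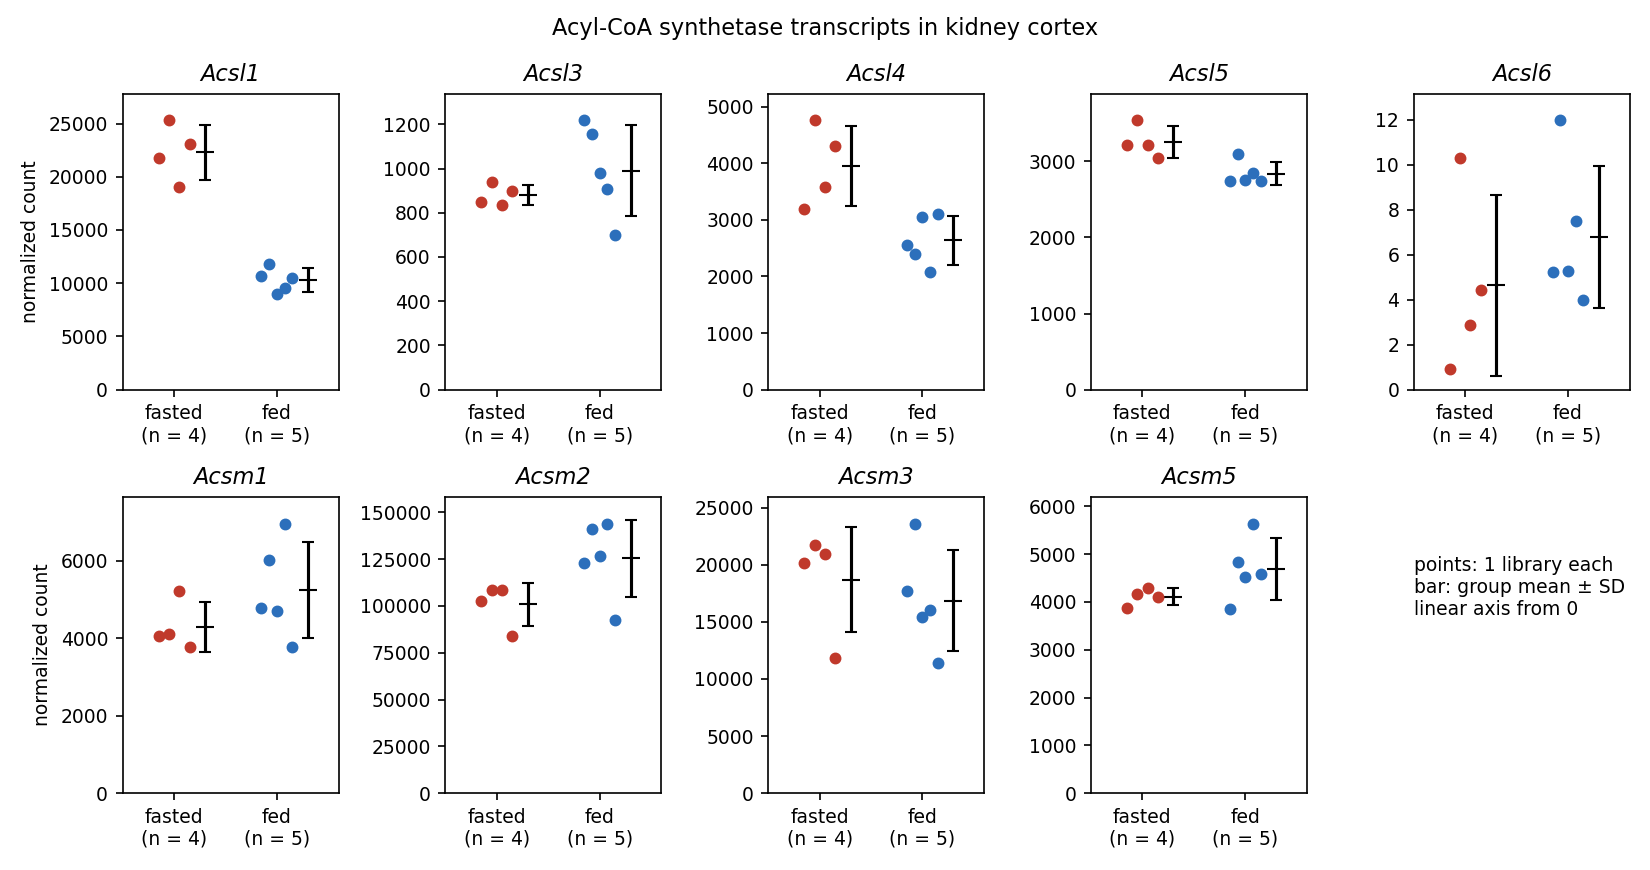
Normalized counts (vertical axis, linear from 0) of the 9 members in fasted (red, left, n = 4) and fed (blue, right, n = 5) libraries, 1 point per library, with the group mean ± SD beside them. The fasted points of Acsl1 (19004 to 25293) stand clear of the fed points (9003 to 11799), those of Acsl4 just clear, and every Acsm panel shows overlapping groups.

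None of the 4 medium-chain genes was called by limma, edgeR, DESeq2 or voom, and none had an unadjusted p under 0.05 with limma. Acsm2, a proximal tubule gene whose product activates medium-chain and aromatic acids, had 102712, 108323, 108352 and 83740 normalized counts in fasted kidneys. Its fed values were 122969, 141249, 126423, 143756 and 92206. All fasted libraries lay below every fed library except Fed 5, which was lower than 3 of the 4 fasted ones. The change was -0.30 (SE 0.15, limma adjusted p = 0.22), with a fold interval of 0.644 to 1.02. Without Fed 5 the groups no longer overlapped and Acsm2 passed as lower in fasted kidneys, with a change of -0.41 (limma adjusted p = 0.043).

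Acsm1, a mitochondrial butyrate and medium-chain ligase, had 4045, 4103, 5228 and 3767 normalized counts in fasted kidneys, against 4773, 6005, 4712, 6947 and 3767 in fed kidneys. Again Fed 5 was the lowest of its group, level with Fasted 4, the lowest fasted library. The change was -0.27 (SE 0.16, limma adjusted p = 0.32), with a fold interval of 0.649 to 1.06. Without Fed 4, its highest library, the change was -0.16.

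For Acsm3, first known as the SA gene of hypertensive rats, the fasted values were 20114, 21761, 20972 and 11846.5 normalized counts. Those of fed kidneys were 17714, 23576, 15463, 16076 and 11409. The other fasted libraries sat close together and Fasted 4 lay far below them, beside the lowest fed library, Fed 5. Its change was 0.15 (SE 0.22, limma adjusted p = 0.71) with a fold interval of 0.798 to 1.54, the widest of the 8 members tested. It moved to 0.35 without Fasted 4, 0.28 without Fed 2, 0.08 without Fasted 3, 0.06 without Fasted 2 and 0.02 without Fed 5. Of its annotated exon bases 39.7% are shared with Eri2 on the opposite strand, and the strand setting of the counting is not given in the sources used here. Eri2 itself had 470 ± 63.1 normalized counts in fasted and 442 ± 61.3 in fed kidneys (limma adjusted p = 0.68).

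Acsm5, the remaining medium-chain gene, was the steadiest of its family. It had 3864, 4167, 4291 and 4096 normalized counts in fasted kidneys and 3861, 4834, 4525, 5630 and 4585 in fed kidneys. The fed libraries lay above the fasted range, except Fed 1, just under it. The change was -0.18 (SE 0.09, limma adjusted p = 0.25), with a fold interval of 0.764 to 1.02, and -0.11 without Fed 4. Pdilt, on the opposite strand, shares 2.74% of its exon bases and rose itself (change 0.50, limma adjusted p = 0.032). Sequence shared with other genes was small in the family: at most 0.553% of the 50-base windows of the longest Acsm transcripts occur in another annotated gene, the highest share being that of Acsm2.

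**Figure D3:**
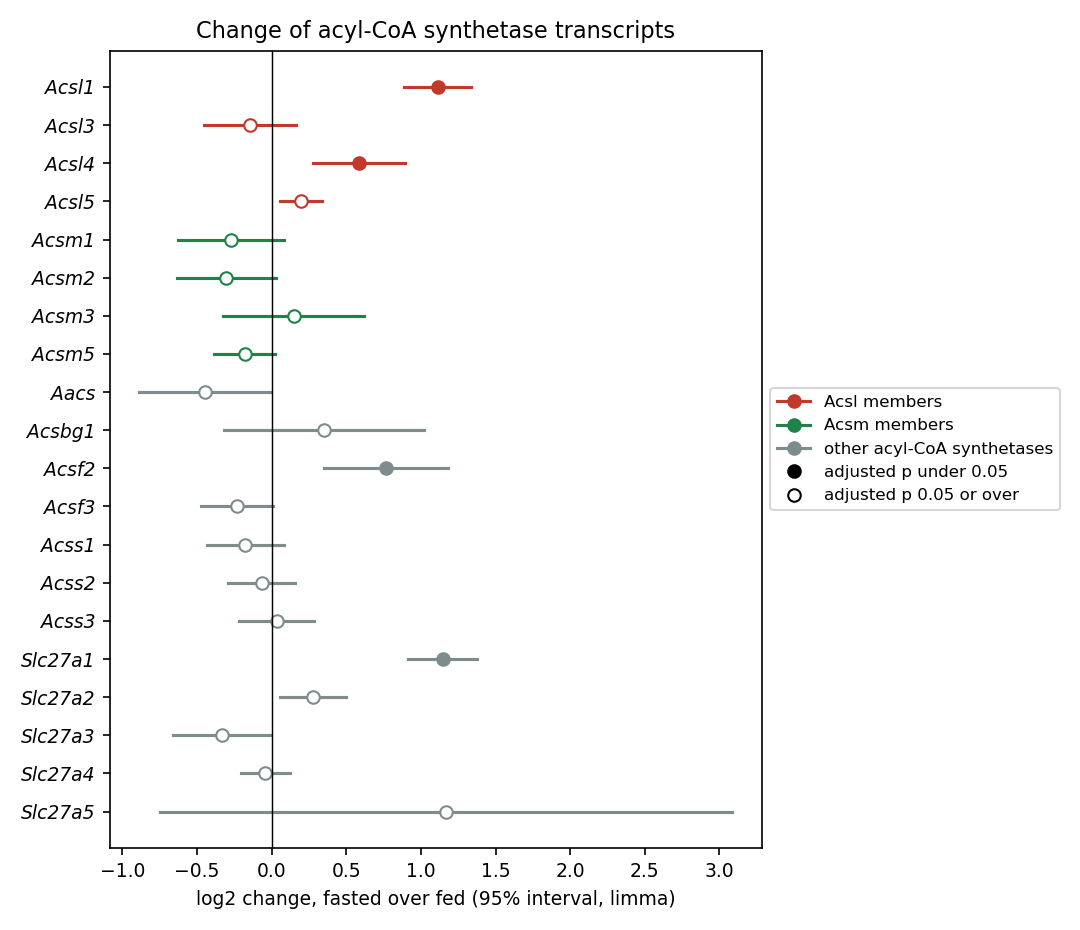
Log2 change, fasted over fed (horizontal axis, point with 95% interval from limma), of the 8 tested members and of 12 other acyl-CoA synthetases. Acsl1 (1.11) and Acsl4 (0.58) are filled as called, and the intervals of all Acsm members include 0.

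Side by side, the families differed in their values as follows. The median change was 0.39 over the 4 tested Acsl genes and -0.23 over the 4 Acsm genes, against 0.00 over all tested genes. Summed per kb, the Acsl genes had 3729 ± 395 normalized counts in fasted kidneys and 2282 ± 143 in fed kidneys, and the groups did not overlap. The Acsm genes summed to 20404 ± 2698 per kb in fasted and 23930 ± 4069 per kb in fed kidneys, with overlap. The ratio of the Acsm sum to the Acsl sum was 5.90, 5.19, 6.72 and 4.31 in fasted libraries and 10.0003, 11.3, 10.6, 13.1 and 7.68 in fed libraries. Every fasted ratio was thus below every fed ratio. Acsl1 made up 57.0% ± 1.89 of the Acsl sum in fasted and 43.0% ± 2.53 in fed kidneys. The share of Acsm2 within the Acsm sum was 66.7% ± 1.32 in fasted kidneys and 70.6% ± 1.47 in fed kidneys, and the groups met at Fasted 4 and Fed 2, both 68.4%. These sums, ratios and shares rest on the joined exon lengths and were not computed with longest transcripts. The longest transcript gave Acsl1 a level of 2753 per kb over the 9 libraries, in place of 1491, so they depend on that choice. No test was run over the members of a family.

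**Figure D4:**
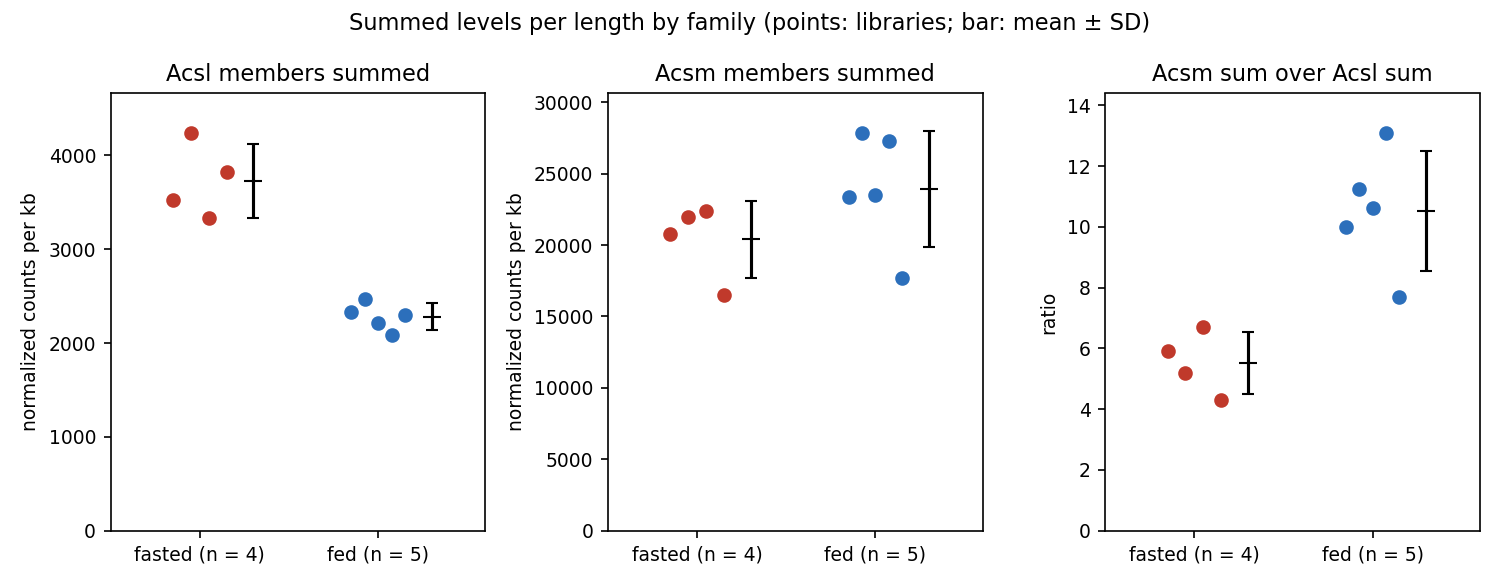
Normalized counts per kb of exon, summed over the Acsl genes (left) and the Acsm genes (middle), and the Acsm sum over the Acsl sum (right), in fasted (red, n = 4) and fed (blue, n = 5) libraries with mean ± SD. Ratios lie between 4.31 and 6.72 in fasted libraries and between 7.68 and 13.1 in fed libraries.

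Within a group, members of both families varied between libraries. Mouse, piece of cortex and library preparation cannot be told apart in this spread. Relative to the fed median, Fed 5 stood at -27.1% for Acsm2, -21.1% for Acsm1 and -29.0% for Acsm3, but at the median for Acsm5. Relative to the fasted median, Fasted 4 stood at -42.3% for Acsm3 and -20.6% for Acsm2, but at -7.55% for Acsm1 and -0.858% for Acsm5. Upward, Acsm3 stood at 46.6% in Fed 2, and Acsm1 at 45.6% in Fed 4 and 28.3% in Fasted 3. Acsl1 stayed between -15.2% and 12.8% of its own group's median in every library. In Fed 5, Acsl3 was also low, at -28.8%, whereas Acsl4 was 21.6% over the fed median. In Fed 1, Acsl3 was 24.4% over it.

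**Figure D5:**
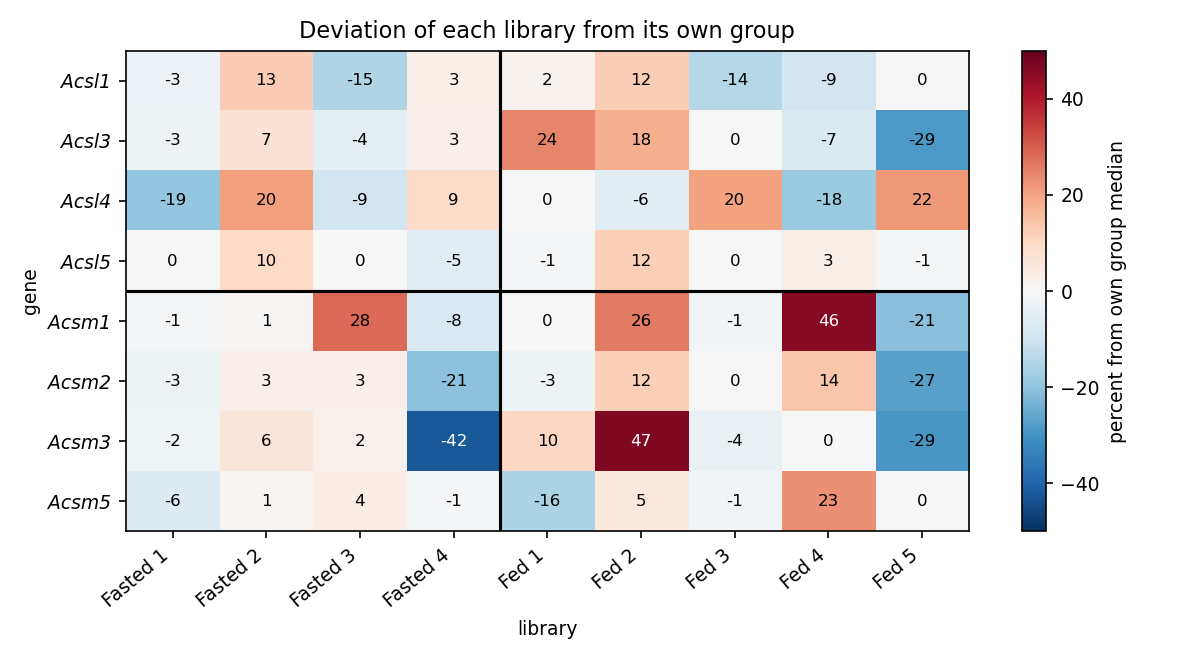
Percent by which each library (columns, fasted left of fed) deviates from the median of its own group, for the 8 tested members (rows). Fed 5 is low for Acsm1, Acsm2 and Acsm3 (-21.1% to -29.0%), Fasted 4 is low for Acsm2 and Acsm3, and Acsl1 stays between -15.2% and 12.8%. The highest are Acsm3 in Fed 2 (46.6%) and Acsm1 in Fed 4 (45.6%).

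The summed markers of the proximal tubule were, like Acsm2, lower on average in fasted kidneys. The 10 listed markers summed to 425977 to 497085 normalized counts in fasted libraries and 482724 to 689019 in fed libraries, and Fed 5 was the lowest fed one. Without Fed 5 the fed sums began at 571176. Most of the sum was Lrp2, with 196593 on average in fasted and 271792 in fed kidneys, and Slc34a1, with 96907 and 147200. The changes of Slc22a6 (0.14) and Slc22a8 (0.19) were above 0, and those of the other listed markers were below 0, Cubn by little (-0.05). Of the 10, Slc34a1 fell (limma adjusted p = 0.038) and 9 were not called. Their part in the Acsm values was not tested, and in bulk tissue fewer cells of a type and less RNA per cell cannot be told apart. Of 5 markers of the straight segment S3, Slc5a10 rose and the others were not called. They summed to 26657 to 40954 in fasted and 20400 to 37810 in fed libraries, lowest in Fasted 4 and Fed 5 of their groups, the libraries low in Acsm3. The libraries highest in Acsm3, Fasted 2 and Fed 2, had S3 sums of 29343 and 32094, each next to the lowest of its group. The part of S3 in the Acsm3 values was not tested.

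Liver and fat also use Acsl1. Hepatocyte markers, all 9 detected in every library, summed to 4743 to 13739 normalized counts in fasted and 1822 to 20741 in fed libraries, and none was called, with a median change of 1.44. The highest sum was that of Fed 2, and the next fed one was 8670 in Fed 3. Fed 2 was also the highest fed library for Acsl1, Acsl5, Acsl6 and Acsm3, but not for Acsl3, Acsl4, Acsm1, Acsm2 or Acsm5. Among the 8 adipocyte markers, 2 of the 4 tested (Fabp4 and Plin1) were higher in fasted kidneys, against 5.72% of all tested genes. The call of Plin1 rests on low and uneven values. Its normalized counts were 1.92 to 70.7 in fasted kidneys (mean 22.4, SD 32.4) and at most 1.84 in fed kidneys. Adipoq reached at most 2.79 normalized counts in any library and Lep was at 0 in 8 of 9. The summed adipocyte markers were 995 to 1580 in fasted and 1039 to 2446 in fed libraries, although the median change of the 4 tested was 1.23. On average most of the fed sum was Car3, with 337 normalized counts in fasted and 1242 in fed kidneys (change -1.66, limma adjusted p = 0.062). The part of either list in the values of Acsl1 or of any other member was not tested.

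Other acyl-CoA synthetases behaved unevenly. Of 12 tested, with a median change of -0.0043, 2 rose and none fell, against 5.72% higher and 5.25% lower over all tested genes. Without Fasted 2, Fasted 3, Fasted 4, Fed 1 or Fed 2, 1 was called. Slc27a1, a fatty acid transport protein with synthetase activity, rose by 1.15 (SE 0.11, limma adjusted p = 0.000154), to 3602 ± 313 normalized counts in fasted kidneys, against 1636 ± 253 in fed kidneys. Acsf2, a mitochondrial family member, rose by 0.77 (SE 0.19, limma adjusted p = 0.027), with 329 normalized counts in fasted and 196 in fed kidneys and overlapping groups. Slc27a2, the very-long-chain synthetase of peroxisomes and endoplasmic reticulum, had 136579 normalized counts in fasted and 112679 in fed kidneys. Its groups did not overlap, yet it was not called (change 0.28, limma adjusted p = 0.10).

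Carnitine shuttle genes, together with Slc22a5 for carnitine uptake, rose almost throughout, with a median change of 0.83. Of 8 tested, 7 rose and none fell, where 5.72% of all tested genes were called higher and 5.25% lower. Slc25a20, the acylcarnitine carrier, rose by 1.57 (SE 0.09), Cpt2 by 1.13 (SE 0.07) and Cpt1a, the outer membrane acyltransferase, by 0.82 (SE 0.11), with limma adjusted p-values of 1.55e-05, 1.55e-05 and 0.000907. Cpt1c, named after its values were seen, was the gene not called (change -0.13, limma adjusted p = 0.63). For proteins that bind acyl-CoA or fatty acids, 3 of 11 tested rose and none fell. These were Dbi, the acyl-CoA binding protein (change 0.26, limma adjusted p = 0.030), Acbd5 of the peroxisome membrane (0.22, limma adjusted p = 0.040) and Fabp4 (0.67, limma adjusted p = 0.0089). Fabp4 is also on the adipocyte list. Without Fasted 1, Fasted 2, Fasted 4 or Fed 2, 1 of the 11 was called.

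Downstream of Acsm, where acyl-CoA is joined to glycine, 3 genes were tested, 1 fell and none rose. Over all tested genes 5.25% were called lower and 5.72% higher. Glyat, the glycine N-acyltransferase that makes hippurate, had 11640 normalized counts in fasted and 11486 in fed kidneys (change 0.03, limma adjusted p = 0.89). Keg1, a kidney gene of the same family, fell by 0.75 (SE 0.21, limma adjusted p = 0.042), to 17711 ± 4758 normalized counts in fasted kidneys, against 29674 ± 7548 in fed kidneys. Without a filter on low values, or without Fasted 1, Fasted 2, Fasted 3, Fed 1, Fed 2 or Fed 4, Keg1 was not called. Gm4952 had 81.4 normalized counts in fasted and 108 in fed kidneys (limma adjusted p = 0.46). Among 12 acyltransferases that place acyl-CoA into glycerolipids, Gpam, the mitochondrial glycerol-3-phosphate acyltransferase, rose by 0.68 (SE 0.10, limma adjusted p = 0.00166). Agpat1, which acts on the next step towards phosphatidic acid, fell by 0.44 (SE 0.08, limma adjusted p = 0.0078), and Agpat2 was not called (0.29, limma adjusted p = 0.075).

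The genes with profiles nearest to the called members were found by the root mean square difference of centred log2 values over the 9 libraries, among 10944 genes with a mean of at least 100. For Acsl1 they included Gcnt4, a glycan branching enzyme (0.13), and Cpt2 (0.14), where the median over all searched genes was 0.59. For Acsl4 they were Vwf, von Willebrand factor (0.12), Spata24 (0.12) and Glud1, glutamate dehydrogenase (0.14), with a median of 0.40. Spata24 was not called (limma adjusted p = 0.082). Because the smallest of 10944 distances were kept, values below the median follow from the choice and are no measure of closeness.

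In the authors' deposited table, Acsl1 (log2 fold change 1.05, adjusted p = 1.3e-22) and Acsl4 (0.53, adjusted p = 0.00126) also stand out. Acsl5 is listed there with 0.19 and an adjusted p of 0.036, and Acsm2 with -0.29 and 0.093. Of the 705 terms in the authors' deposited table of annotation terms, 61 hold a member, and the members are Acsl1, Acsl4 or both. The terms annotate the authors' own gene list, so a gene outside that list could not appear. Acsl1 and Acsl4 are the 2 members with an adjusted p under 0.01 in the authors' deposited table. The terms are therefore no separate comparison of the families. The PPAR signaling pathway holds both, with 23 genes, a 3.70-fold enrichment and a Benjamini adjusted p of 1.52e-05 in the authors' deposited table. Long-chain fatty acid CoA ligase activity, with 4 genes and a 4.36-fold enrichment, has an adjusted p of 0.63 in that deposited table of the authors.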

How the data were processed

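Libraries were TruSeq preparations of TRIzol-extracted RNA, per the labels' protocols. TopHat2 2.0.9, HTSeq 0.9.1 and DESeq2, with mm10 and hg19 as builds, are named per the submitters' processing notes; annotation and strand setting are not given in the sources used here. For each of 9 libraries the authors deposited normalized read counts, a signal scaled by a size factor: all 161194 values above 0 are whole multiples of the library's step within 0.01 reads, so whole reads were recovered for 100% of them. Recovered reads were 18902645 to 27186745 per fasted library and 19638174 to 32469467 per fed library; depth limits Acsl6 alone among the members. Also deposited by the authors are log2 fold changes, a score, p-values, and the fold enrichment of annotation terms. Fed 3 (5.53%) and Fasted 1 (2.36%) had the most counts in the ribosomal RNA entry Rn45s, against 0.513% to 1.38% in the others.

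limma 3.58.1 (R 4.3.3) with a trend was run two-sided on log2(value + 1) over 15098 genes, and 1656 genes (11.0%) were called. The steps were tested on simulated data. edgeR 4.0.16, DESeq2 1.42.0 and voom on recovered reads, with other filters, pseudocounts, scalings and left-out libraries, were the 20 alternatives. edgeR called 1655 genes. Gene positions and exon lengths are from GENCODE M21, matched by Ensembl identifier. All members are named, with the 3 smallest adjusted p-values of each list and the 3 nearest profiles of each called member, of which 1 is not reported here. The members and lists were chosen with earlier results of these data known. Replicate numbers are in accession order and pair no samples. The clustered annotation terms were not used here.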

Additional observations from a re-analysis of the deposited data

Results flagged for a closer look

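Single libraries stood far from the rest of their group in 5 of the 48 groups examined; chance alone marks about 1 group in 20. Acsm3 in Fasted 4 had 11846.5 normalized counts, against 20114 to 21761 in the other fasted libraries. Acsl5 in Fed 2 had 3093, against 2744 to 2841 in the other fed libraries. Slc27a1 in Fed 5 had 2068, against 1454 to 1631. Slc25a20 in Fasted 2 had 4169, against 3252 to 3382, and Agpat2 in the same library had 941, against 781 to 786.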

How the results depend on the processing

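Direction did not change for any tested member in any of the 20 alternatives. With a threshold of 0.01, Acsl4 (0.58) was not called, leaving 1 Acsl member, and the calls were 538 over all genes and 1 each for other synthetases and binding proteins, and 0 for glycine conjugation, which also had 0 without a filter. Acsl5 was called with DESeq2 (0.20). Leaving out 1 library gave Acsl4 changes of 0.49 to 0.68, Acsl5 0.16 to 0.23, and Acsm2 -0.41 to -0.22, passing only without Fed 5. The same omissions gave -0.27 to -0.07 for Acsl3, -0.38 to -0.16 for Acsm1, 0.02 to 0.35 for Acsm3 and -0.25 to -0.11 for Acsm5, none of them called. Counts under the same omissions were 1 to 2 for Acsl, 0 to 1 for Acsm, 861 to 1959 for all genes (over 1.5 times fewer without Fasted 1, Fasted 3, Fasted 4 or Fed 1), 1 to 3 for other synthetases, 1 to 3 for binding proteins and 0 to 1 for glycine conjugation. Without Fed 3 and Fasted 1 together, 1068 genes were called, 1 binding protein and 0 glycine genes; Acsl1 (1.07) and Acsl4 (0.74) stayed called. With longest transcript lengths, levels per kb moved to 5359 for Acsm3, 1486 for Acsm5, 2753 for Acsl1, 712 for Acsl5 and 1.004 for Acsl6. Depth limited Acsl6 alone. No paired analysis was possible because the replicate numbers only follow accession order.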
